A study of Mus musculus with 6 samples.

Results

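Fibroblast growth factor (FGF) signalling was examined through 10 genes in lungs of mouse embryos labelled as lacking Smad1 in the lung epithelium: the ligands Fgf10 and Fgf9, the receptors Fgfr1 and Fgfr2, the transcription factors Etv4 and Etv5, and the feedback inhibitors Il17rd, Spry2, Spry4 and Dusp6. Every probe set that the platform annotation assigns to 1 of these symbols alone was taken, which gave 23 probe sets for the 10 genes, of 45037 probe sets and 18193 named genes in all. The arrays hold RNA of the left lung lobe of C57/BL6 embryos at E18.5, from 3 Smad1 CKO (conditional knockout) animals and 3 wild type animals. The design text speaks of 3 pairs, and which arrays form a pair was inferred from the array names. Smad1 is a transcription factor that relays signals of bone morphogenetic proteins. The sources used here do not name the Cre driver, the deleted part of Smad1 or any allele carried by the wild type animals. RNA of each animal was hybridised to its own Affymetrix Mouse430_2 array. A lobe contains epithelium together with vessels and mesenchyme that were not targeted.

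In the developing lung, Fgf10 is secreted by the mesenchyme and acts mainly on the epithelial splice form of Fgfr2, which drives branching and keeps distal progenitors undifferentiated. Fgf9 comes from the mesothelium and the epithelium and acts on receptors of the mesenchyme. An activated receptor signals through Ras and the kinase ERK. ERK signalling switches on the ETS-family factors Etv4 and Etv5 and a set of inhibitors that dampen the same pathway: the Sprouty proteins Spry2 and Spry4, the receptor-level inhibitor Il17rd (also called Sef), and Dusp6, a phosphatase that inactivates ERK.

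The largest differences among the 10 genes lay in the receptor Fgfr2 and in 3 of the response genes. Intensities of Fgfr2 (2.27-fold), Etv5 (2.28-fold), Il17rd (1.85-fold) and Dusp6 (1.78-fold) were lower in the Smad1 CKO lung of every pair, by the brightest probe set of each gene. Spry4 was lower in every pair by a smaller factor (1.37-fold). Fgf9, Fgf10, Fgfr1, Etv4 and Spry2 differed in no settled direction between the pairs. None of the 23 probe sets passed the adjusted threshold of 0.05 (limma, Benjamini-Hochberg over all probe sets, lowest adjusted p = 0.367), which only 0.00222% of all probe sets passed in either direction. The values below are therefore descriptions of these 6 arrays, with unadjusted p-values beside them.

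The 4 genes with an unadjusted p under 0.05 are shown by the sequence in front of them, since ETS factors and Smad proteins act through promoters. Each is the stretch of 200 bases that ends just before the first annotated base of the gene, 5′ to 3′ on the gene's strand, taken from RefSeq (GRCm38.p6). Capitals mark GGAA, a 4-letter core of ETS binding sites, or its reverse complement TTCC. Other 4-letter forms of the core were not searched.
Fgfr2, chr7:130266809-130267008, minus strand: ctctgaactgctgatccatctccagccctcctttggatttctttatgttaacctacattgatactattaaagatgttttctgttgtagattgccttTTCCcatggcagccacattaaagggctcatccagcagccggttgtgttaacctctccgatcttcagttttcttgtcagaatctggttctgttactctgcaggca
Etv5, chr16:22439571-22439770, minus strand: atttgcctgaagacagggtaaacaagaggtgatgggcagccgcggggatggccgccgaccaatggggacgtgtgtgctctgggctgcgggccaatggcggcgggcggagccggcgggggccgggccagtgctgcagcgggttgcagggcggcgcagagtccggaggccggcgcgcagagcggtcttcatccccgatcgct
Il17rd, chr14:27038764-27038963, plus strand: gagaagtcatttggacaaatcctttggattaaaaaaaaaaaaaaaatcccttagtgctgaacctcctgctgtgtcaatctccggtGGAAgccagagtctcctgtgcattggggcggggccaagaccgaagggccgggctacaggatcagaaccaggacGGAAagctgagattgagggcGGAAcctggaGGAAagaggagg
Dusp6, chr10:99263031-99263230, plus strand: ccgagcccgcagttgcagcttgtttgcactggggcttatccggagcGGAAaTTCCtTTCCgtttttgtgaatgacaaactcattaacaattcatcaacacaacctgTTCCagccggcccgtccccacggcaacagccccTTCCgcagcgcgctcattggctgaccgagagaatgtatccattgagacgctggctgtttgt

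The Dusp6 stretch held 5 matches to GGAA, of which 3 lie close together between 154 and 144 bases before the gene. The Il17rd stretch held 4, the Fgfr2 stretch 1 and the Etv5 stretch 0, against a median of 2 and at least 1 match in 89% of 32851 promoter stretches of the same length. A longer ETS core (CCGGAA, present in 10.7% of all stretches), a GC-rich Smad element (GGCGCC, 8.43%) and the short Smad box (CAGAC, 35.5%) were searched on both strands and were found in none of the 4. The longer core contains the shorter one. The shorter core was chosen after the other motifs had given no match, and all of these counts describe a short window only.

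The arrays did not all look alike. Smad1 CKO 3 had an 18S ribosomal RNA signal of 2887, while the other 5 arrays ranged from 243 to 297. Its upper quartile of intensity, 170.3, was below the 222 to 284 of the rest. The 15012 brightest probe sets had median log2 differences of -0.30, -0.02 and -0.96 in pairs 1 to 3. Smad1 CKO 1 differed from its wild type partner in the female-specific RNA Xist (1971 against 74.3) and in the Y-linked gene Eif2s3y (12.7 against 404), so genotype and sex cannot be told apart within pair 1. Pair 2 showed neither feature. In pair 3 Smad1 CKO 3 had Xist at 207 against 97.4 in its partner, and Eif2s3y at 133 against 418. These went in the same directions as in pair 1, by less, and whether sex differed within pair 3 was not tested. Smad1 mRNA itself was at 1111, 1577 and 529 in CKO lungs 1 to 3, against 1026, 1089 and 739 in wild type lungs 1 to 3, and was thus not lower overall (log2 difference 0.06, 95% interval -0.56 to 0.67). Its other probe sets gave -0.28 and -0.18, and after cyclic loess normalization the brightest gave 0.58. The arrays are therefore named by their labels, which Smad1 RNA of the whole lobe did not check. A probe set outside the deleted part would not check the labels, and untargeted cells of the lobe also carry Smad1 RNA.

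**Figure D1:**
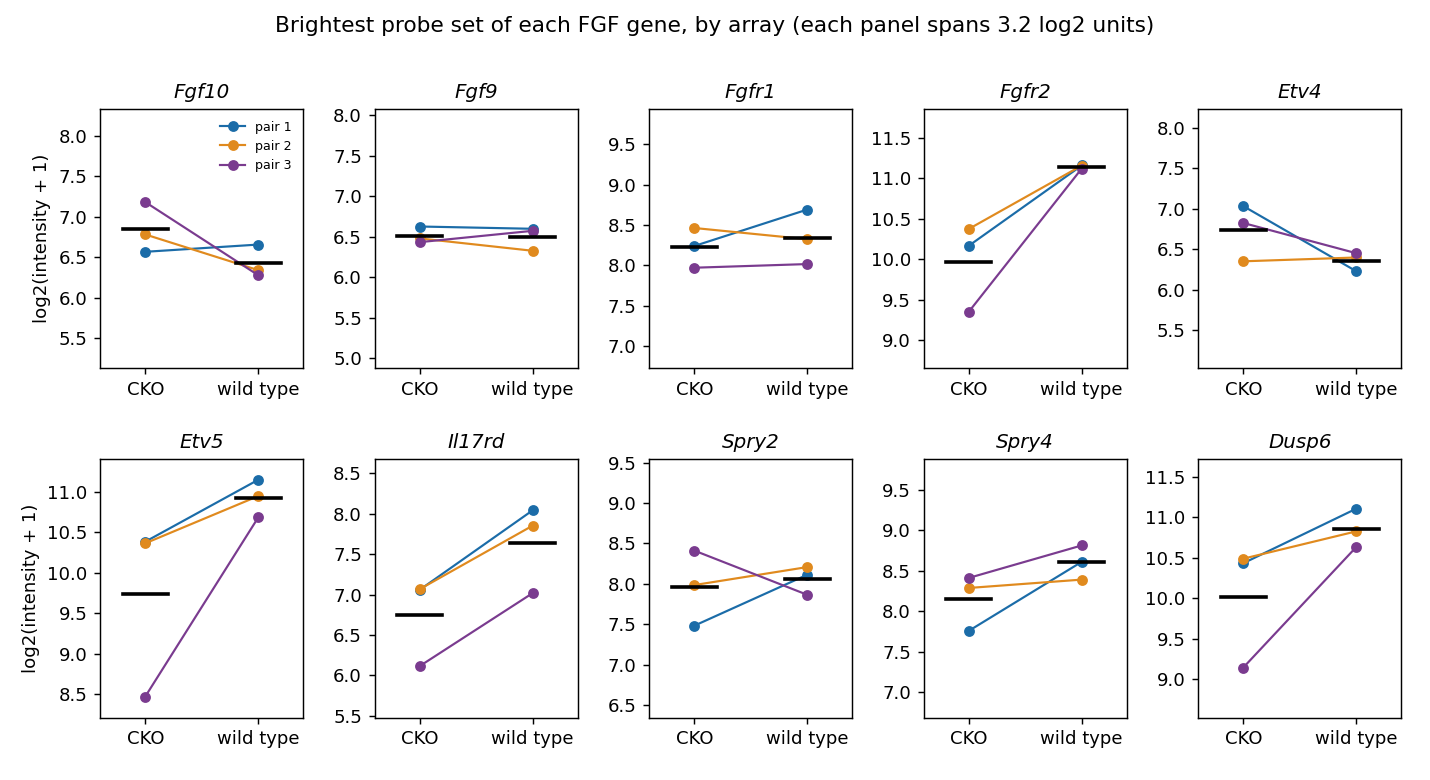
Level of each of the 10 FGF genes by its brightest probe set, as log2(intensity + 1), in Smad1 CKO lungs (left) and wild type lungs (right); points are arrays, lines join a pair, and black bars are group means of 3 arrays. Every line runs upward to wild type for Fgfr2, Etv5, Il17rd, Spry4 and Dusp6, and the lowest Smad1 CKO point for Fgfr2, Etv5 and Dusp6 is that of pair 3.

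Both FGF ligands were near the middle of the intensity scale, and neither differed beyond the spread between pairs. Fgf10 had an intensity of 93.9, 109 and 144 in CKO lungs 1 to 3, against 99.9, 80.1 and 76.6 in wild type lungs 1 to 3. The groups overlap, since CKO lung 1 lies between the wild type values. The log2 difference was 0.42 ± 0.50 over the 3 pairs (SD; 95% interval -0.19 to 1.03), and it was 0.18 without pair 3. Fgf9 had 97.8, 88.3 and 85.5 in CKO lungs and 95.9, 79.3 and 94.3 in wild type lungs, a log2 difference of 0.01 with an interval of -0.45 to 0.47. Its second, dimmer probe set was below every array median and gave -0.05. Mesothelial markers, of a tissue that makes Fgf9, summed to 1855 to 4302 in CKO lungs and 5793 to 7204 in wild type lungs over 9 genes. Msln, with 1016, 924 and 448 in CKO lungs and 2965, 2761 and 2099 in wild type lungs, made up much of that difference. Of the 9 genes, 4 were lower in each pair and 2 had an unadjusted p under 0.05. Of all 18193 genes, 5334 were lower in each pair and 9.96% were lower at that p. The mesothelial factor Wt1 gave 0.04, and Krt19 is also counted among the epithelial markers. The part of mesothelial cells in the Fgf9 level was not tested.

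The 2 receptors differed from each other in what the arrays showed. Fgfr2, the receptor for Fgf10 and Fgf7 in the epithelium, had 1149.6, 1328 and 652 in CKO lungs 1 to 3 and 2288, 2287 and 2228 in wild type lungs 1 to 3. The wild type values agree closely with each other, and every CKO value lies below all of them. The group means were 1043 ± 350.0 in CKO lungs and 2268 ± 34.1 in wild type lungs (SD, n = 3 each). The log2 difference was -1.18 (95% interval -1.80 to -0.56; limma, unadjusted p = 0.00363, adjusted p = 0.367), with -0.99, -0.78 and -1.77 in pairs 1 to 3.

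A second bright Fgfr2 probe set repeated this pattern. It gave 954, 999 and 333 in CKO lungs and 1884, 1703 and 1843 in wild type lungs, a log2 difference of -1.41. The remaining probe set was much dimmer, at 86.9, 51.6 and 108 in CKO lungs and 80.5, 73.9 and 91.96 in wild type lungs, and its pairs differed in sign. No source used here says which splice forms of Fgfr2 each probe set reads, so the epithelial and mesenchymal forms were not separated. Without pair 3 the log2 difference of the brightest probe set was -0.89, and after cyclic loess normalization between arrays it was -0.62, with -0.72, -0.77 and -0.37 in the 3 pairs.

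Fgfr1, a receptor of the mesenchyme and other tissues, had 301, 352 and 250.002 in CKO lungs and 412, 319 and 258 in wild type lungs. These groups overlap, and pair 2 went the other way from pair 1. The log2 difference was -0.12 (interval -0.63 to 0.39), and the other 2 Fgfr1 probe sets gave -0.22 and -0.20. The brightest probe set gave 0.26 after cyclic loess normalization, so Fgfr1 had no settled direction.

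The 2 ETS-family factors of the pathway were far apart in brightness and did not share a direction. Etv5, which is expressed in the distal epithelium and in alveolar type 2 cells, had 1337, 1319 and 354 in CKO lungs 1 to 3 and 2274, 1977 and 1646 in wild type lungs 1 to 3. All CKO values lie below all wild type values, and CKO lung 3 lies far below the other CKO lungs. The log2 difference was -1.19 ± 0.89 (SD, 3 pairs), with pair values of -0.77, -0.58 and -2.21 (limma, unadjusted p = 0.0157, adjusted p = 0.367).

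The other 2 Etv5 probe sets were also separated between the groups. The first of these had 411, 459 and 177 in CKO lungs and 629, 599 and 516 in wild type lungs, a log2 difference of -0.85. The other had 431, 368 and 81.2 in CKO lungs and 551, 477 and 475 in wild type lungs, a log2 difference of -1.09 with an interval of -2.22 to 0.05. The size of the Etv5 difference rests partly on CKO lung 3: without pair 3 the brightest probe set gave -0.67. It gave -0.64 after cyclic loess normalization and stayed lower in each pair. With the pairs ignored its unadjusted p was 0.059 in limma.

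Etv4 was much dimmer than Etv5, at 130.04, 80.6 and 112 in CKO lungs and 74.0, 83.4 and 86.5 in wild type lungs. CKO lung 2 lay within the wild type range while CKO lungs 1 and 3 lay above it. Its log2 difference averaged 0.38 ± 0.43 over 3 pairs (SD; interval -0.19 to 0.95), and the second probe set, the dimmest of the 23, gave 0.18. Whether Etv4 and Etv5 differed from each other in their response was not tested.

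Among the inhibitors, Il17rd had the most even difference. Its brighter probe set had 132, 133 and 68.4 in CKO lungs 1 to 3 and 263, 230.1 and 129 in wild type lungs 1 to 3. This probe set stood at percentile 65.92 of brightness, and its value on Smad1 CKO 3 was below that array's median of 77.8. Each CKO lung lay below its own partner, but the groups overlap because wild type lung 3 lay below CKO lungs 1 and 2. The pair differences were -0.98, -0.79 and -0.90, with a mean of -0.89 ± 0.10 (SD, 3 pairs) and an interval of -1.34 to -0.44 (limma, unadjusted p = 0.00307, adjusted p = 0.367).

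The Il17rd difference was -0.70 after cyclic loess normalization, and without pair 3 it was -0.88. Without Smad1 CKO 3 and without pairing it was -0.57 (limma, unadjusted p = 0.112). With all arrays and the pairs ignored the unadjusted p was 0.051 in limma. The second Il17rd probe set, at 34.0, 30.6 and 37.4 in CKO lungs and 31.5, 35.2 and 36.9 in wild type lungs, was near the bottom of the intensity scale and gave -0.02.

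Dusp6, the ERK phosphatase, is read by a single probe set, which had 1383, 1437 and 565 in CKO lungs and 2207, 1817 and 1588 in wild type lungs. Every CKO value was below every wild type value. The log2 difference was -0.83 ± 0.59 (SD, 3 pairs), with -0.67, -0.34 and -1.49 in the pairs (limma, unadjusted p = 0.0222, adjusted p = 0.367). Without pair 3 the difference was -0.51, and without Smad1 CKO 3 and without pairing it was -0.39 (unadjusted p = 0.073 in limma). With all arrays and the pairs ignored the unadjusted p was 0.070 in limma, and without pair 1 it was 0.071. The difference was -0.28 after cyclic loess normalization (unadjusted p = 0.115 in limma), and its pair 3 value was then -0.11.

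The Sprouty genes, which restrain receptor signalling to Ras and ERK, gave a mixed result. Spry4 had 215, 311 and 339.5 in CKO lungs and 389.9, 335 and 449 in wild type lungs by its brightest probe set, with a log2 difference of -0.45 (interval -0.997 to 0.091). The groups overlap, through CKO lung 3 and wild type lung 2. A second Spry4 probe set of almost the same brightness had 303, 346 and 158 in CKO lungs and 528, 410.4 and 359 in wild type lungs, with no overlap and a difference of -0.74 (limma, unadjusted p = 0.0223). The 2 dimmer Spry4 probe sets gave 0.01 and 0.18.

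The first 2 Spry4 probe sets gave -0.06 and -0.35 after cyclic loess normalization, and the first gave -0.48 without pair 3. After that normalization the first had -0.52, -0.06 and 0.41 in pairs 1 to 3, so pair 3 was then higher. The second stayed lower in each pair, at -0.47, -0.20 and -0.37. Spry2 had 178, 253 and 339.7 in CKO lungs and 276, 295 and 232 in wild type lungs. CKO lung 3 was the highest of all 6 arrays, and the pair differences of -0.63, -0.22 and 0.55 did not share a sign. The mean was -0.10 (interval -0.77 to 0.57), or -0.43 without pair 3, and the second Spry2 probe set gave 0.54, again with CKO lung 3 the highest.

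**Figure D2:**
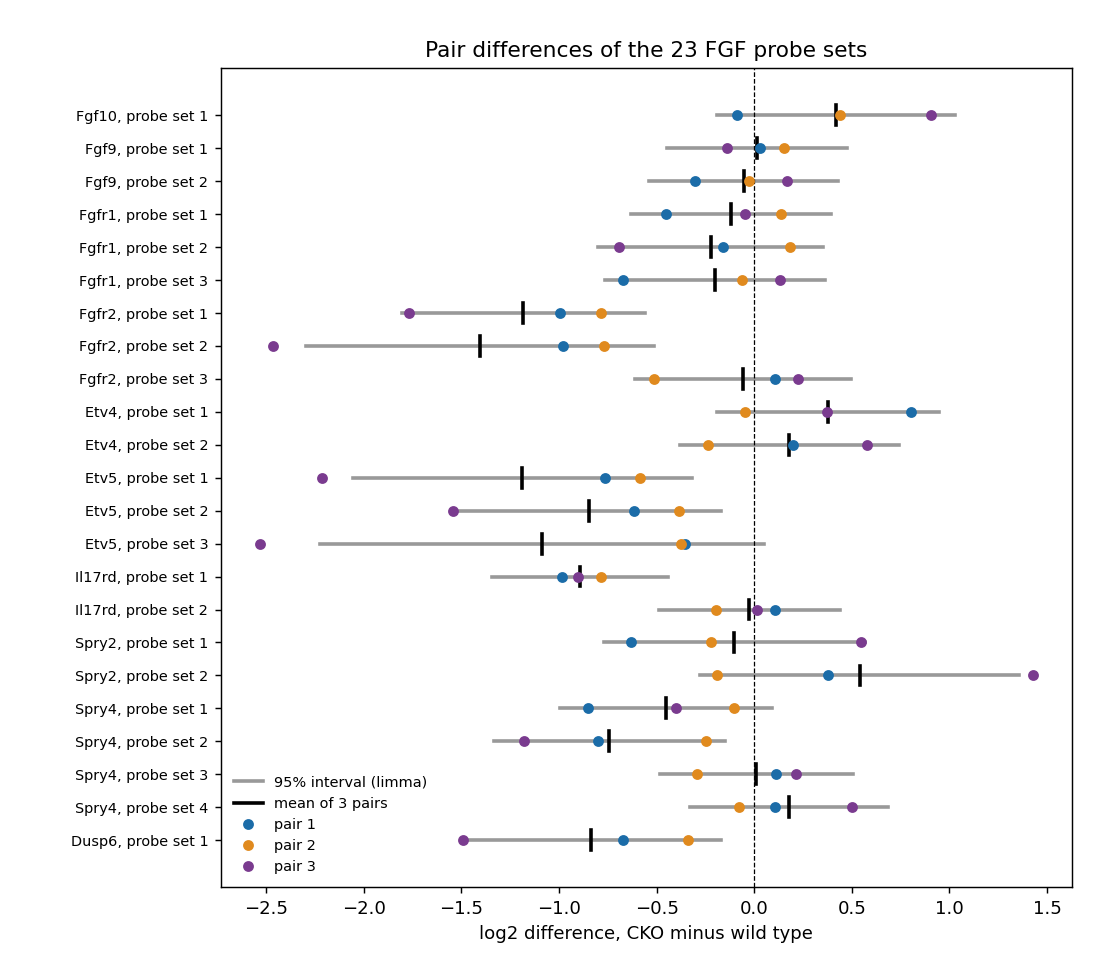
Log2 difference, Smad1 CKO minus wild type, for each of the 23 FGF probe sets, numbered within a gene by falling brightness; coloured points are the 3 pairs, black ticks their mean and grey bars the 95% interval from limma. The brightest probe sets of Fgfr2, Etv5, Il17rd, Spry4 and Dusp6 lie left of 0 in all pairs, and pair 3 is the most extreme point in most of them.

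Over the 23 probe sets, 7 (30.4%) were lower at an unadjusted p under 0.05 and 0 were higher, against 8.4% lower and 4.29% higher among all probe sets. Lower values in all 3 pairs were seen for 9 (39.1%), against 24.1%. For 7 (30.4%) every CKO array lay below every wild type array, against 5.36%. Such calls were more frequent among bright probe sets. Of the 23 probe sets, 11 belong to the brightest 15012 probe sets, 10 to the middle group of that size and 2 to the dimmest. Among the brightest 15012 probe sets, 6 of the 11 (54.5%) were lower at an unadjusted p under 0.05, against 16.2% of all of that group, and 7 (63.6%) had separated groups, against 10.1%. Probe sets of the same gene on the same arrays are not independent. The 7 with separated groups belong to Fgfr2, Etv5, Spry4 and Dusp6 only. The genes were also chosen with earlier results of these data known, so these shares are descriptions.

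By the brightest probe set, 4 of the 10 genes were lower at an unadjusted p under 0.05, against 9.96% of all genes, and 0 were higher, against 4.96%. After cyclic loess normalization 3 of the 10 were lower at that level (Fgfr2, Etv5 and Il17rd), against 6.25%. The median log2 difference of the 10 genes was -0.29, with -0.65, -0.16 and -0.27 in pairs 1 to 3, while the median of all genes was -0.09. After cyclic loess normalization these medians were -0.02 and 0.05.

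**Figure D3:**
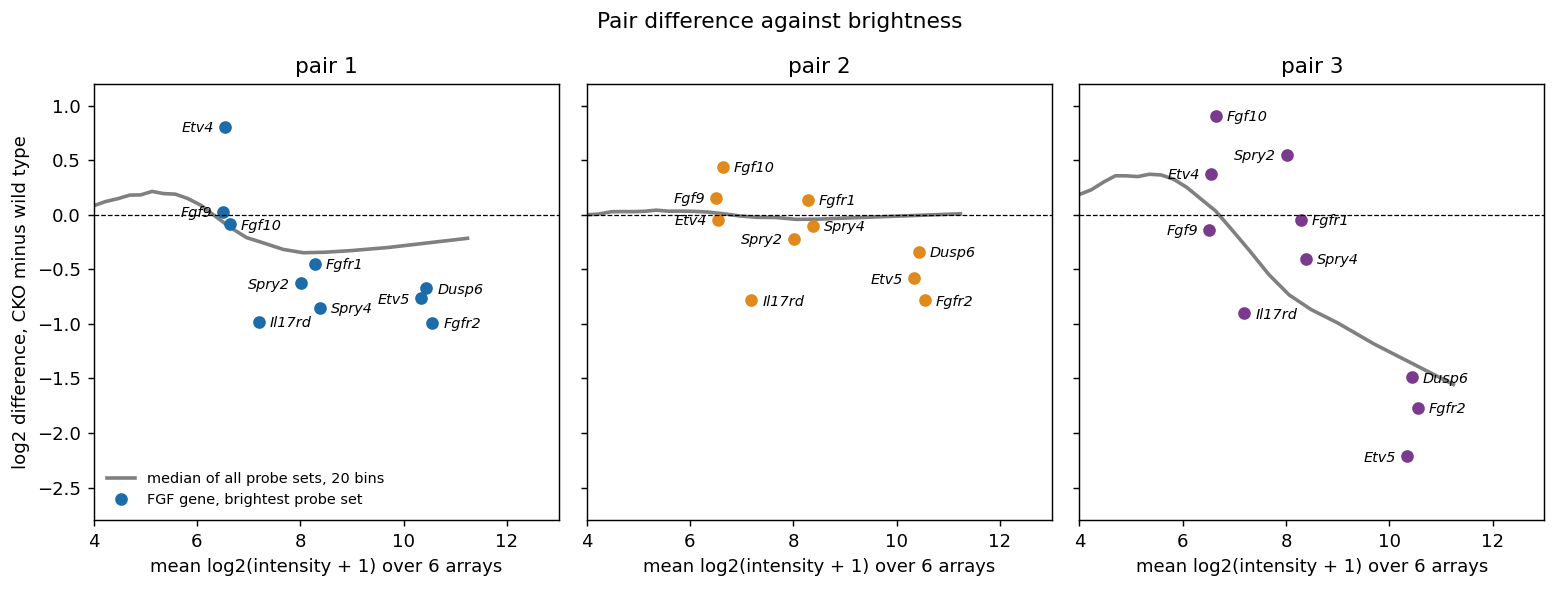
Pair difference (log2, Smad1 CKO minus wild type) of the brightest probe set of each FGF gene against its mean log2(intensity + 1) over 6 arrays, with a grey line for the median of all probe sets in 20 brightness bins. In pair 2, where the line stays near 0, Fgfr2 (-0.78), Il17rd (-0.79), Etv5 (-0.58) and Dusp6 (-0.34) lie below it; in pair 3 the line itself drops to -1.56 in the brightest bin and Dusp6 lies on it.

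Markers of several lung cell types were lower on the same arrays, and others were not. The 12 alveolar type 2 markers other than Etv5 summed to 17259 to 63150.0 in CKO lungs and 93152 to 109558 in wild type lungs, with a median log2 difference of -1.66 and 11 genes lower in each pair. The 15 endothelial markers summed to 7147 to 20049 in CKO lungs and 21329 to 28836 in wild type lungs, and 15 of 15 were lower in all 3 pairs, with a median of -0.96. Of all 18193 genes, 5334 were lower in all 3 pairs. The 12 alveolar type 1 markers summed to 15266 to 45906 in CKO lungs and 55996 to 59505 in wild type lungs. Of these, 12 were lower in each pair, with a median of -0.88. The median of 14 fibroblast and matrix markers was -0.69, and 8 were lower in each pair. After cyclic loess normalization the alveolar type 2 median was -0.98 and the endothelial median -0.42. The alveolar type 1 median was then -0.33 and the fibroblast and matrix median -0.03. General epithelial markers, in contrast, summed to 25321 and 30691 in CKO lungs 1 and 2, with 9510.2 in CKO lung 3, against 24075 to 25674 in wild type lungs. The median log2 difference of these 17 genes was 0.04, 0.36 and -1.02 for pairs 1 to 3. In RNA of a whole lobe, fewer cells of a type and less RNA per cell cannot be told apart, and the part of these markers in the FGF values was not tested.

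Genes whose pair differences were most like those of Etv5 were sought among 12474 other genes with a mean log2 level of at least 6, by the mean absolute gap over the 3 pairs. The nearest 5 were Podxl (podocalyxin, gap 0.034), Cd93 (0.046), Antxr2 (0.059), the transcription factor Jun (0.059) and the transcription factor Zeb2 (0.078). Podxl had 1298, 1325 and 353 in CKO lungs and 2249, 2057 and 1672 in wild type lungs. With 3 pairs this likeness is a description. Among the FGF genes, Fgfr2 had the smallest gap to Etv5 (0.290, rank 240 among these genes). Dusp6 (0.354, rank 463) and Il17rd (0.577, rank 2393) followed, so many genes outside the pathway were closer to Etv5.

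Other genes of the pathway were read from lists, each gene by its brightest probe set. Of 103 listed genes 95 had a probe set with their symbol alone, and 0 passed the adjusted threshold in limma. At an unadjusted p under 0.05, 13 were lower and 5 higher, against 9.96% lower and 4.96% higher among all genes. The counts of each list below are to be read against the same shares. The median log2 difference was -0.22, with -0.04, 0.04 and -0.50 in pairs 1 to 3. This median was 0.14 after cyclic loess normalization, so the lists as a whole had no settled direction. Without pair 3 it was -0.0034.

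Among the other 16 FGF ligands, 1 was lower and 2 were higher at an unadjusted p under 0.05. Fgf7, a mesenchymal ligand that shares the epithelial Fgfr2 form with Fgf10, had 268, 467 and 162 in CKO lungs and 511, 509 and 447 in wild type lungs. CKO lung 2 lay within the wild type range, and the log2 difference was -0.84 ± 0.67 (SD, 3 pairs; limma, unadjusted p = 0.0291). Without pair 3 it was -0.52. Fgf21, an endocrine ligand, had 179.6, 46.3 and 108 in CKO lungs and 49.8, 42.3 and 48.7 in wild type lungs. Its difference of 1.03 was carried by CKO lungs 1 and 3. Fgf17 gave 0.69 and Fgf20 gave 0.43, both among dim probe sets. Of the 4 intracellular FGF homologous factors, Fgf14 was higher at 0.73 (unadjusted p = 0.0205 in limma), while Fgf13 gave -0.42, Fgf11 0.37 and Fgf12 0.21.

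Of 12 other receptors and binding partners, 2 were lower and 0 higher at that level. Nrp1, a co-receptor better known for VEGF and semaphorin, gave -0.87 and the FGF carrier Fgfbp3 gave -0.53. The Nrp1 value was -0.46 without pair 3 and -0.24 after cyclic loess normalization (unadjusted p = 0.184 in limma), where that of Fgfbp3 was -0.64. Fgfr4 gave -0.45, and 0.04 after cyclic loess normalization, and Flrt3, a membrane protein that binds FGF receptors, gave 0.44.

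Of 13 measured genes that relay the signal from receptor to ERK, Nras (-0.93) and the Ras activator Sos1 (-0.55) were lower and the adaptor Frs3 (0.66) was higher at an unadjusted p under 0.05. Without pair 3 Nras gave -0.53 and Sos1 -0.35, and after cyclic loess normalization these were -0.48 and -0.10 (unadjusted p = 0.0334 and 0.521 in limma). The phosphatase Ptpn11, which promotes Ras activation, gave -0.58, with -0.26 without pair 3 and -0.07 after cyclic loess normalization. The median of these 13 was -0.49, but it was 0.00 after cyclic loess normalization. It also lay at 0.00 in pair 2, where the median of the 10 FGF genes was -0.16.

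Of 17 other feedback and response genes of the ERK pathway, 3 were lower and 0 higher. Dusp4, another ERK phosphatase, had 42.2, 57.1 and 41.8 in CKO lungs and 93.1, 96.2 and 52.5 in wild type lungs, a difference of -0.73 ± 0.40 (SD, 3 pairs; limma, unadjusted p = 0.0184), and after cyclic loess normalization it gave -0.86. CKO lung 2 lay above wild type lung 3, so the groups overlap. Errfi1, an inhibitor of EGF receptors, gave -0.72 and the immediate early gene Ier3 gave -0.72, and after cyclic loess normalization these were -0.15 and -0.16 (unadjusted p = 0.424 and 0.338 in limma). Without pair 3 they were -0.46 and -0.42. Dusp7 gave -0.41. The median of the 17 was -0.33, and 0.10 after cyclic loess normalization.

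Of 18 genes that make or carry heparan sulfate, the sugar that FGFs need to bind their receptors, 1 was lower and 0 higher. The heparan sulfate carrier Sdc2 gave -0.79, with -0.41 without pair 3 and -0.31 after cyclic loess normalization (unadjusted p = 0.0832 in limma), and the chain-building enzymes Ext1 and Extl3 gave -0.72 and -0.42, the second at 0.03 after cyclic loess normalization. Ext1 gave -0.27 without pair 3 and -0.28 after cyclic loess normalization. Hs6st1, which adds sulfate to the chain, gave -0.44, and -0.25 after that normalization.

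Of 15 genes that surround Fgf10 in lung development, 4 were lower and 1 higher. Sox9, a transcription factor of distal tip progenitors, had 80.6, 105 and 116 in CKO lungs and 189.9, 176 and 141 in wild type lungs. The groups do not overlap, and the difference was -0.75 (limma, unadjusted p = 0.0212). Gli1, a target gene of hedgehog signalling, which restrains Fgf10, had 148, 114 and 96.2 in CKO lungs and 109, 82.1 and 54.9 in wild type lungs. Gli1 was higher in each pair, at 0.57 ± 0.20 (SD, 3 pairs), but the groups overlap. The hedgehog pathway genes Ptch1 and Hhip gave -0.38 and -0.39, and 0.21 and 0.22 after cyclic loess normalization. Without pair 3 these 2 genes were at -0.012 and 0.20. The mesenchymal factors Foxf1 and Tbx4 gave -0.86 and -0.82, with -1.69 and -1.70 in pair 3. Without that pair they were -0.44 and -0.38, and after cyclic loess normalization -0.29 and -0.26 (unadjusted p = 0.104 and 0.161 in limma). The median of the 15 was -0.38, and 0.21 after cyclic loess normalization.

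**Figure D4:**
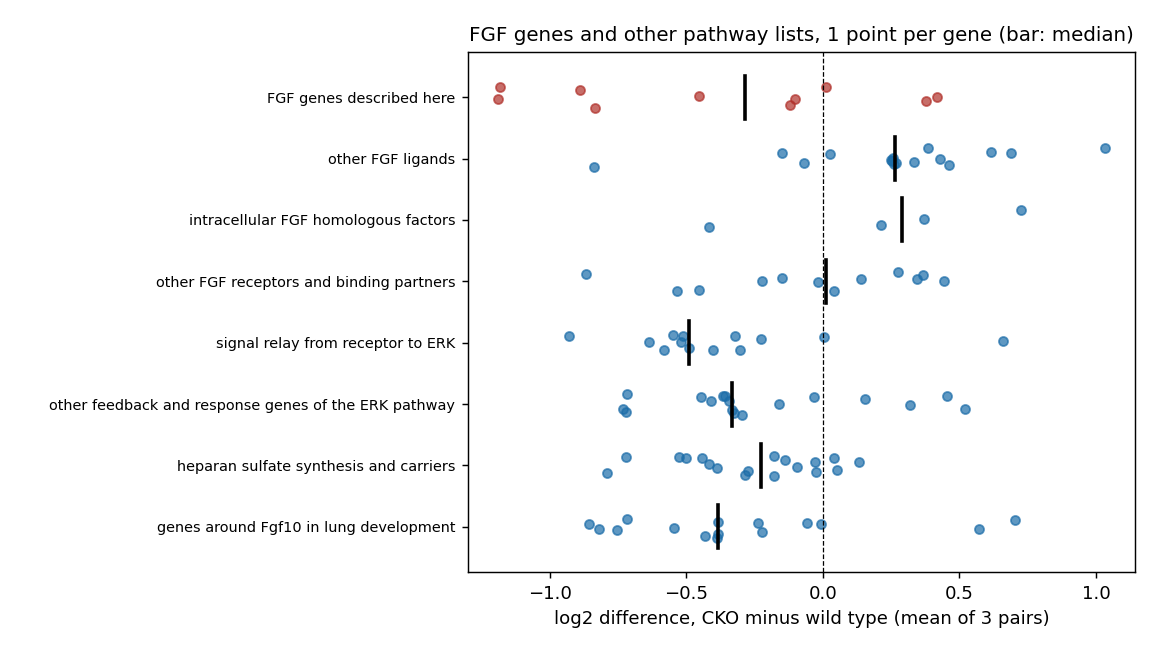
Log2 difference, Smad1 CKO minus wild type (mean of 3 pairs), for the 10 FGF genes (top row, red) and for the genes of 7 other pathway lists (blue), 1 point per gene by its brightest probe set, with a bar at each median. Fgfr2 and Etv5 (-1.18 and -1.19) are the leftmost points of the plot, and Fgf21 (1.03) is the rightmost.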

How the data were processed

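RNA of left lung lobes at E18.5 was read on 1 array per animal, 3 Smad1 CKO and 3 wild type. The values were deposited as linear intensity per probe set, and RMA is named in the submitters' processing notes. No source used here gives its software or settings, so the effect of its normalization on Smad1 CKO 3 could not be traced. Intensities were converted to log2(value + 1), which shrinks differences of dim probe sets slightly. Tests did not include the 64 control probe sets. Gene names come from the platform annotation. Of 45037 probe sets, 34945 had 1 symbol, and 34741 of these matched a current gene table by gene identifier, with 0 symbols changed. Each gene was represented by its brightest probe set (mean log2 value of 6 arrays). Of the 10 genes, 7 had an entry in the RefSeq promoter table.

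The genotype effect was fitted across all probe sets by lmFit and eBayes of limma 3.58.1 (R 4.3.3; two-sided), with the pair as a fixed block, Benjamini-Hochberg adjustment and a threshold of 0.05. Intervals (95%) are the fit's, and each SD covers 3 pairs or 3 arrays. That animals were paired comes from the design text. Which arrays form a pair was inferred from the array names (a common first letter and consecutive numbers), since no label states it. Deviations from group means correlated within pairs at 0.258, 0.604 and 0.597, and at most at 0.215 between pairs. No 2 arrays were copies of each other (smallest root mean square distance 0.2266). The labels do not say whether the animals of different pairs came from separate litters, and the p-values measure only the spread between these arrays, whose number limits the precision. An exact permutation test of 3 arrays against 3 cannot go below 0.1 unpaired or 0.25 within pairs, so none was used. The fit was tested on simulated data. The members, lists and tests were chosen with earlier results of these data known. By rule the text names the members, Smad1, up to 4 genes with the smallest p of each pathway list, and the 5 genes most like Etv5. Ptch1 and Hhip were added beside Gli1. Alternatives covered the pair block, each pair, Smad1 CKO 3, scaling, pseudocount, dim probe sets, an intensity trend, array weights and the mean over probe sets.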

Additional observations from a re-analysis of the deposited data

Results flagged for a closer look

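The control probe set for 18S ribosomal RNA, which no comparison uses, read 2887 on Smad1 CKO 3, against 267 and 283 on the other Smad1 CKO arrays and 243 to 297 on the wild type arrays. Its part in the FGF values of pair 3 was not tested, and values without that pair stand beside the results for Fgfr2, Etv5, Il17rd, Dusp6, Spry4, Spry2 and Fgf10 above.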

How the results depend on the processing

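Fgfr2, Etv5, Il17rd, Spry4 and Dusp6 were lower in Smad1 CKO lungs in each of the 12 alternatives, with log2 differences from -1.38 to -0.62, -1.49 to -0.55, -0.97 to -0.46, -0.79 to -0.05 and -1.08 to -0.28. Etv4 was higher in all 12 (0.16 to 0.73). Some of this agreement was fixed in advance. Ignoring the pair block, leaving out dim probe sets or adding an intensity trend changes p-values but not the difference of a probe set. For Dusp6, with its single probe set, the mean over probe sets also leaves the difference unchanged. Since Fgfr2, Etv5, Il17rd, Spry4 and Dusp6 were lower in every pair, leaving out a pair could not turn their sign. The same holds for another pseudocount and for array weights that are equal within each pair. No FGF probe set passed the adjusted threshold except with array weights. These came out equal within each pair, 7.05 in pair 1 against 0.507 and 0.280 in the others. They called 23234 of the 45037 probe sets, among them 13 FGF probe sets and 54 other pathway genes. At an unadjusted p under 0.05 there were 15 FGF probe sets, 13 lower and 2 higher. That fit rests almost on pair 1 alone. The count of FGF probe sets at an unadjusted p under 0.05, which was 7, was 2 without the pair (no replicate block). It ran from 4 to 9 when a pair or Smad1 CKO 3 was left out, with 4 without pair 1. The 9, without pair 2, were 8 lower and 1 higher. The share of all probe sets in these settings is not given here, so these counts cannot be read against a background. The median of the 10 genes was -0.018 after cyclic loess normalization, -0.023 after quantile normalization, and -0.62 with array weights. Genes with small differences turned their sign. Fgf10 was at -0.020 with array weights. Fgf9 ran from -0.056 to 0.091 when arrays were left out and was at -0.020 over all its probe sets. Fgfr1 ran from -0.25 to 0.047 when arrays were left out, and was at 0.26 and 0.23 after cyclic loess and quantile normalization. Spry2 ran from -0.43 to 0.16 when arrays were left out, and was at 0.24 and 0.28 after the 2 normalizations and 0.22 over its probe sets. The causes were not tested.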
